A study of Micropterus salmoides with 45 samples.

Results

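Severe hypoxia was compared with normal oxygen after 24 h in the liver of largemouth bass (Micropterus salmoides), in 6 of 45 small RNA libraries. The 6 were chosen by their labels: 3 libraries of the severe hypoxia group, at 1.2 ± 0.2 mg/L dissolved oxygen, and 3 of the control group, at 7.0 ± 0.2 mg/L. All fish were 6 months old, were held at 20 °C and were fasted, controls included, so that a 24 h control fish had also gone 24 h longer without food than a 0 h fish. Each oxygen level had 3 tanks of 30 fish, and 0 h was the time at which nitrogen had brought the oxygen down. The labels do not link a library to a fish or a tank and do not say whether livers were pooled, so the p-values reflect how libraries vary, which may be technical, and tank and oxygen level cannot be told apart. Used beside them were the control and severe groups at 0, 4, 8 and 12 h and the moderate hypoxia group at 24 h (3.0 ± 0.2 mg/L), each with 3 libraries.

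MicroRNAs (miRNAs) are short RNAs cut from hairpin precursors, and each hairpin can give one mature strand from its 5p arm and one from its 3p arm. Bound to Argonaute proteins they pair with messenger RNAs and lower their stability or translation. In low oxygen, hypoxia-inducible factors accumulate and switch on genes of glycolysis, red cell and vessel formation, and in mammals also miR-210. In the liver of mammals miR-122 is the characteristic miRNA of hepatocytes, where it is tied to lipid metabolism.

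Each library listed 266 miRNAs, 139 of the 5p and 127 of the 3p arm, in rpm, reads scaled to a common library size. The values of most miRNAs hold only 2 measurements in a group: in the 24 h controls 1 of the 3 values was the mean of the other 2 for 202 miRNAs, all 3 were identical for 35, all were 0 for 26, and only 3 miRNAs had 3 separate values. The severe group had 184, 36, 36 and 10 of these kinds. Averaged values are given below but were treated as not measured in the tests of single miRNAs, where of identical values 1 was kept. Sums over a library, by which shares are formed, and sums over lists include all deposited values, averaged and repeated ones too. The error of a group with 1 kept value is taken from the other groups. No source used here states why values were averaged, and errors may therefore be too small. The spacing of the low values implies 1.01 to 2.35 mega-reads behind each of the 6 libraries, so that 1 read is worth 0.426 to 0.987 rpm.

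The hepatocyte marker miR-122 was present but was not among the most abundant miRNAs. Both of its arms were above 0 in all 6 libraries, as were 229 to 240 of the 266 miRNAs in each. Its presence alone therefore does not identify the tissue. miR-122-5p held 3.45% to 4.32% of the listed total in the controls and 1.27% to 1.92% in severe hypoxia. The 5 most abundant miRNAs of the 6 libraries were miR-192-5p, miR-26a-5p, miR-181a-5p, let-7a-5p and miR-22a-3p, which together took 37.5% of the listed total in the controls and 45.1% in severe hypoxia.

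The sum over all listed miRNAs differed between the groups. It was 340215, 300084 and 359347 rpm in the 3 controls and 539699, 536150 and 524255 rpm in the 3 severe libraries. The groups did not overlap, the severe mean was 1.60 times the control mean, and the exact two-sided permutation test gave p = 0.1, the smallest that 3 against 3 allows. Averaged and repeated values enter these sums, so the 3 sums of a group are not independent measurements. The test and the SD below treat them as such. The control sum at 24 h also stood below those of the earlier control groups, whose means ran from 630942 to 795919 rpm, while earlier severe groups ran from 566928 to 784474 rpm. Moderate hypoxia at 24 h had 354710 ± 19865 rpm (SD, n = 3).

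A few abundant miRNAs made up most of this gap. miR-192-5p alone gave 21.9% of it, miR-26a-5p 14.3%, miR-181a-5p 13.4%, let-7a-5p 8.71% and miR-21-5p 5.05%, together 63.3%. By contrast, miR-122-5p was lower in severe hypoxia and took 1.90% off the gap. Of the 266 miRNAs, 165 had a higher and 83 a lower mean in severe hypoxia as deposited, and 18 were equal.

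Since the denominator of the rpm is not given, each difference is stated on 2 scales, as deposited and as a share of the listed total of its library, given in percent or, for rare miRNAs, in ppm (the listed total set to the base that rpm has). Differences are log2 values with 1 rpm added, and a miRNA was called at an adjusted p under 0.05 (limma, Benjamini-Hochberg over all 213 miRNAs tested). As deposited, 72 miRNAs (33.8%) were called, 59 higher (27.7%) and 13 lower (6.10%) in severe hypoxia. As a share, 59 (27.7%) were called, 13 higher (6.10%) and 46 lower (21.6%). Over every miRNA tested, the median log2 difference was 0.45 as deposited and -0.19 as a share, and calls on 1 scale alone were all higher as deposited and all lower as a share. The measured values of the groups did not overlap for 71.8% of the tested miRNAs as deposited and 69.0% as a share, so a gap between groups of this size is common. Scaling by the median of ratios to the mean library put that median at 0.00 and gave 55 calls, 20 higher and 35 lower. In all, 26 miRNAs (12.2%) were called in 1 direction on both scales, 13 higher and 13 lower (6.10% each). A further 46 were called higher only as deposited and 33 lower only as a share. With standard errors doubled, to allow for the averaging, 2 calls were left as deposited (miR-126b-3p and miR-153a-3p) and 1 as a share (miR-153a-3p), and without control library 2 the count as deposited was 47.

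**Figure D1:**
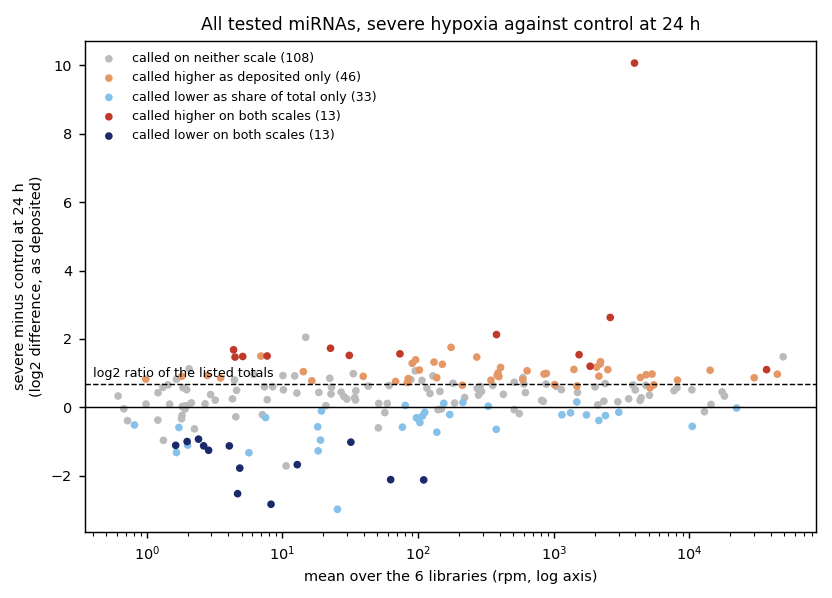
Log2 difference between severe hypoxia and control at 24 h as deposited (y axis) against the mean level over the 6 libraries in rpm (x axis, log scale), 1 point for each of the 213 tested miRNAs. The dashed line is the log2 ratio of the listed totals, 0.68. The 46 miRNAs called higher only as deposited lie near or above that line, most of the 33 called lower only as a share lie below 0, and the 26 called on both scales lie at 1.10 or above or at -0.93 or below.

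Among the miRNAs called higher on both scales, miR-222a-3p kept its call on both when any 1 of the 6 libraries was left out. It is one product of the miR-221 and miR-222 pair, which in mammals restrains the cell cycle inhibitor p27 and the receptor KIT and is expressed in vessel walls and injured liver. It had 739.8, 516 and 964 rpm in control libraries 1 to 3, the first an average, and 4475, 3519 and 5431 rpm in severe libraries 1 to 3, the first again an average. Every severe library was above every control library, as deposited and as a share, where the controls held 0.172% to 0.268% and the severe libraries 0.656% to 1.04%. The log2 difference was 2.63 as deposited (SE 0.34, adjusted p = 1.07e-05) and 1.94 as a share (SE 0.34, adjusted p = 0.000363). Over the earlier times the group means of its share ran from 0.314% to 0.532% in the controls and from 0.252% to 1.17% in severe hypoxia.

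The other products of the miR-221 and miR-222 pair were less clear. The opposite strand, miR-222a-5p, had 254, 195 and 313 rpm in the controls and 549, 557 and 564 rpm in severe hypoxia, and was called as deposited (1.17, adjusted p = 0.0012) but not as a share (0.47, adjusted p = 0.12). For miR-221-5p the controls carried 1 repeated value of 784 rpm, so that their error comes from other groups, and the severe libraries had 2289, 2114 and 2465 rpm. It was called on both scales (1.54, adjusted p = 0.0024, and 0.90 as a share, adjusted p = 0.0418). The second call was lost without control library 3 (0.90, adjusted p = 0.0504), severe library 2 (1.03, adjusted p = 0.0665) or severe library 3 (0.77, adjusted p = 0.145). Control library 3 holds no kept value of miR-221-5p, so leaving it out changed only the error and the adjustment. Without control library 1, which holds the kept value, it could not be tested. miR-221-3p, with 2451, 1881 and 1311 rpm in the controls and 2902 rpm repeated in severe hypoxia, was not called on either scale (0.69, adjusted p = 0.306, and 0.07 as a share, adjusted p = 0.926).

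miR-460-3p and miR-365-3p rose on both scales as well. miR-460-3p had 140.8, 168 and 114 rpm in the controls and 713, 518 and 616 rpm in severe hypoxia, with no overlap. Its log2 difference was 2.13 as deposited (SE 0.35, adjusted p = 0.000194) and 1.42 as a share (SE 0.34, adjusted p = 0.00471). Without control library 3 the share difference was 1.01 and was no longer called (adjusted p = 0.0734). Its 5p strand, miR-460-5p, was not called (0.81 as deposited, adjusted p = 0.144, and 0.13 as a share, adjusted p = 0.865). miR-365-3p, which in mammals is made from a transcript shared with a miR-193, had 10.1, 11.8 and 8.27 rpm in the controls and 35.2, 36.1 and 34.3 rpm in severe hypoxia. Its measured values correspond to 21 implied reads against 116. Over the implied depths this is a ratio of 3.54 as deposited, with an exact 95% interval of 2.21 to 5.94 for counting error alone. The difference was 1.73 as deposited (adjusted p = 0.000142) and 1.09 as a share (adjusted p = 0.00628), and 0.73 as a share without control library 3 (adjusted p = 0.109). In the same libraries miR-193a-3p was called lower as a share (-0.77, adjusted p = 0.0356) and not as deposited (-0.11, adjusted p = 0.808).

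The other rises with a mean of at least 10 rpm were smaller as a share. The passenger strands miR-122-3p and let-7a-3p went from 36.6, 34.5 and 38.6 rpm to 101.13, 110.3 and 119.5 rpm, and from 15.6, 13.8 and 17.4 rpm to 42.2, 46.6 and 51.0 rpm. Neither pair of groups overlapped. For miR-122-3p the log2 difference was 1.56 as deposited (adjusted p = 0.000314) and 0.89 as a share (adjusted p = 0.0139), and for let-7a-3p 1.52 (adjusted p = 0.00045) and 0.86 (adjusted p = 0.0264). The share call of miR-122-3p was lost without control library 3 (0.84, adjusted p = 0.0671) or severe library 3 (0.75, adjusted p = 0.103). That of let-7a-3p was lost without control library 2 (0.82, adjusted p = 0.098), control library 3 (0.90, adjusted p = 0.0704) or severe library 3 (0.71, adjusted p = 0.158).

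miR-125b-5p and miR-181a-5p were also called higher on both scales. miR-125b-5p, known in mammals for its part in growth and blood cell formation, had 1122, 1148 and 1097 rpm in the controls and 2705, 2584 and 2464 rpm in severe hypoxia. miR-181a-5p, which tunes lymphocyte signalling in mammals, had 23598, 21053 and 26143 rpm against 50346, 50974 and 49898 rpm, and its 3 severe values were separate measurements. Neither overlapped between groups on either scale: as a share, miR-181a-5p held 6.94% to 7.28% in the controls and 9.33% to 9.52% in severe hypoxia. As deposited the differences were 1.20 for miR-125b-5p (adjusted p = 0.000175) and 1.10 for miR-181a-5p (adjusted p = 0.00026). As shares they were 0.51 (adjusted p = 0.0494) and 0.40 (adjusted p = 0.0366), close to the threshold. Leaving out a single library ended the share call in 5 of the 6 cases for each, with values from 0.34 (control library 3 left out, adjusted p = 0.297) to 0.55 (severe library 3 left out, adjusted p = 0.101) for miR-125b-5p. The others were 0.51 without control library 1 (adjusted p = 0.0642), 0.46 without severe library 1 (adjusted p = 0.177) and 0.51 without severe library 2 (adjusted p = 0.0617). Control library 1 and severe library 2 hold averaged values of miR-125b-5p, so leaving them out changed only the error and the adjustment. For miR-181a-5p those values ran from 0.38 (control library 2 left out, adjusted p = 0.151) to 0.43 (control library 3 left out, adjusted p = 0.103), and were 0.41 (adjusted p = 0.0603), 0.40 (adjusted p = 0.0874) and 0.40 (adjusted p = 0.0826) without severe libraries 1, 2 and 3.

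miR-126b-3p gave the largest difference of all, and its severe value is not a measurement of its own. The controls had 7.24, 6.37 and 5.51 rpm, and all 3 severe libraries were listed at exactly 7863 rpm. That number is also listed for another severe library, at 4 h, so the log2 difference of 10.07 as deposited (adjusted p = 2.13e-06) and 9.53 as a share (adjusted p = 1.90e-05) is a description of the deposited values. miR-126 is the characteristic miRNA of endothelial cells. Its near-identical partner miR-126a-3p had 3576, 3342 and 3811 rpm in the controls and 7021, 7524 and 6519 rpm in severe hypoxia, a difference of 0.97 as deposited (adjusted p = 0.0341) and 0.28 as a share (adjusted p = 0.568). In moderate hypoxia at 24 h the pair was the other way round, with miR-126a-3p at 0.00322% of the listed total and miR-126b-3p at 1.25%. How the authors divided reads between the 2 precursors is not known here, and both are reported as uncertain.

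Both 5p strands of miR-126 were listed at nearly the same level as each other in every control library, so their reads may be shared. miR-126a-5p had 1281, 1005 and 1556 rpm in the controls and miR-126b-5p 1274, 1003 and 1544 rpm. The severe libraries had 2850.5, 3221 and 2480.4 rpm for miR-126a-5p and 3084, 3204 and 3144 rpm for miR-126b-5p. Each was called as deposited (1.18, adjusted p = 0.0203, and 1.34, adjusted p = 0.00791) and neither as a share (0.48, adjusted p = 0.313, and 0.62, adjusted p = 0.169). All 4 endothelial strands were thus called higher as deposited, against 27.7% of all tested miRNAs, and 1 as a share, miR-126b-3p. They do not count as 4 separate measurements, since the severe value of miR-126b-3p is a repeated number and the 5p strands may share reads. In whole liver, a change in the number of cells of a type and a change in RNA per cell cannot be told apart.

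**Figure D2:**
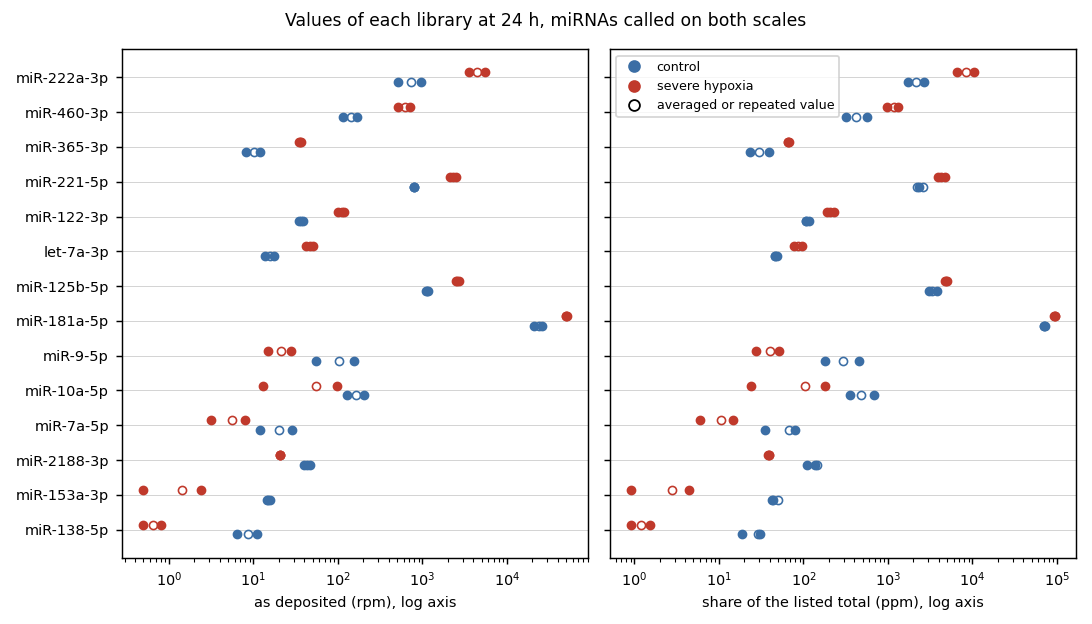
Values of each library at 24 h for 14 miRNAs called on both scales, as deposited in rpm (left) and as ppm of the listed total (right), both on log axes. Points are libraries, blue for control and red for severe hypoxia, and open points are averaged or repeated values. Measured values of the groups are apart in each row on both scales. miR-126b-3p is not drawn, since its severe value is 1 number repeated.

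Of the 13 miRNAs called lower on both scales, 4 are on the neuron marker list used here. miR-9-5p, a regulator of neural progenitors, had 154, 54.3 and 104 rpm in the controls and 27.9, 14.8 and 21.3 rpm in severe hypoxia. The groups did not overlap, though the 2 measured controls differed more from each other than the lower of them differed from the higher severe value. The log2 difference was -2.12 as deposited (SE 0.47, adjusted p = 0.00185) and -2.87 as a share (SE 0.47, adjusted p = 0.000181). Without control library 1 the deposited difference was -1.37 (adjusted p = 0.0508). Its 3p strand, miR-9-3p, with 36.6, 15.8 and 26.2 rpm against 11.2, 11.9 and 12.8 rpm, was called lower as a share (-1.68, adjusted p = 0.00349) but not as deposited (-0.96, adjusted p = 0.0652). The share call was lost without control library 1 (-1.17, adjusted p = 0.0642).

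The other 3 were at low levels and fell as well. miR-153a-3p, which in mammals restrains synaptic proteins, had 14.5, 15.1 and 15.6 rpm in the controls and 2.39, 0.490 and 1.44 rpm in severe hypoxia. This is 51 implied reads against 4, a ratio of 0.0822 with an exact 95% interval of 0.0216 to 0.224. Its difference of -2.83 as deposited (adjusted p = 1.77e-06) and -3.51 as a share (adjusted p = 9.63e-08) was called on both scales also with standard errors doubled (adjusted p = 0.0204 and 0.00328). miR-138-5p, a miRNA of dendrites, had 6.39, 8.70 and 11.02 rpm against 0.650, 0.490 and 0.800 rpm, or 27 implied reads against 2 (ratio 0.0776, 0.00895 to 0.309). Its difference was -2.52 as deposited (adjusted p = 0.000386) and -3.19 as a share (adjusted p = 4.86e-05). miR-219-5p, a miRNA of myelinating cells, rests on 10 implied reads against 2 (ratio 0.21, 0.0223 to 0.9835). It was called on both scales (-1.11, adjusted p = 0.0126, and -1.66 as a share, adjusted p = 0.00248), and as deposited was no longer called without control library 1 (-0.79, adjusted p = 0.117) or severe library 2 (-0.98, adjusted p = 0.0811).

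Of the 16 listed miRNAs known from neurons, 11 were tested. As deposited 0 were called higher and 4 lower, against 6.10% lower among all tested, and as a share 0 higher and 5 lower, against 21.6%. The 5 are those just given. Listed at 0 in every severe library, and at no more than 4.26 rpm in any control library, were miR-124-3p, miR-137-3p, miR-137-5p and miR-219-3p. The median log2 difference of the tested members was -0.37 as deposited and -0.81 as a share, beside 0.45 and -0.19 over all tested miRNAs. Its most abundant member, miR-128-3p, had 2051, 2189 and 2327 rpm in the controls and 2768, 2491 and 2214 rpm in severe hypoxia and was not called (0.18, adjusted p = 0.592, and -0.42 as a share, adjusted p = 0.183). Other members had positive differences on both scales, none called. They were miR-153b-3p (0.93 as deposited and 0.31 as a share), miR-218a-3p (0.85 and 0.16), miR-218a-5p (0.98 and 0.34) and miR-218b-5p (0.82 and 0.43). The last tested member, miR-153c-5p, had -0.37 and -0.81 and was not called either. The summed list held 0.685% to 0.780% of the listed total in the controls and 0.446% to 0.538% in severe hypoxia, without overlap. As deposited the sums overlapped, at 2331 to 2545 rpm and 2337 to 2903 rpm.

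At earlier times these 4 neural miRNAs were low in both groups. As a share of the listed total, the 24 h controls stood above the mean of the 4 earlier control groups by 3.23 for miR-153a-3p (adjusted p = 5.14e-09), 2.38 for miR-138-5p (adjusted p = 2.10e-05), 2.75 for miR-9-5p (adjusted p = 5.17e-06) and 1.28 for miR-219-5p (adjusted p = 0.000949). This comparison called 94 of 208 miRNAs (45.2%), 58 higher (27.9%) and 36 lower (17.3%). The 24 h severe group was not called against its own earlier groups for any of the 4: the differences were -0.12 (adjusted p = 0.766), -0.76 (adjusted p = 0.102), 0.38 (adjusted p = 0.457) and -0.04 (adjusted p = 0.966), in a comparison that called 62 of 207 miRNAs (30.0%), 11.6% higher and 18.4% lower. In ppm of the listed total, miR-153a-3p had group means of 1.20 to 7.97 in the earlier controls and 1.91 to 3.64 in earlier severe hypoxia, against 43.0 ± 0.62 (SD, n = 2) in the 24 h controls and 2.67 ± 2.48 in severe hypoxia. These comparisons share the 24 h libraries with the main one, so they describe the same values from another side.

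**Figure D3:**
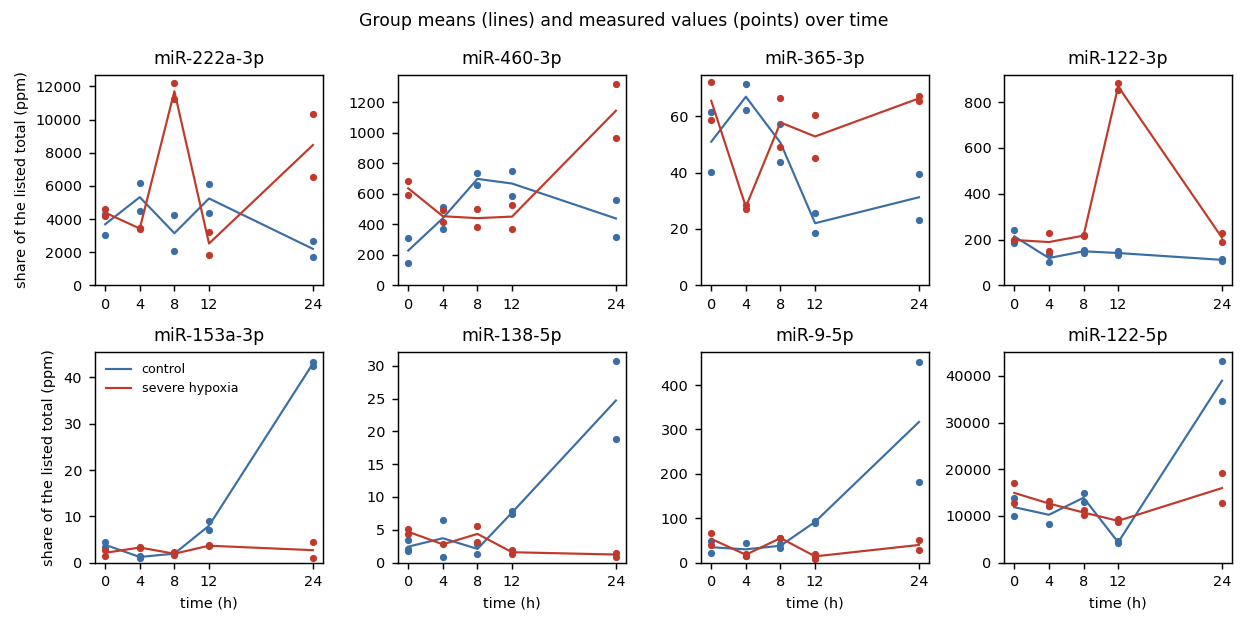
Share of the listed total in ppm (y axes, linear, from 0) at 0, 4, 8, 12 and 24 h (x axes) for 8 miRNAs, control in blue and severe hypoxia in red. Lines join group means and points are measured values. miR-153a-3p, miR-138-5p, miR-9-5p and miR-122-5p are highest in the 24 h controls, and miR-460-3p is highest in severe hypoxia at 24 h, while the severe mean is highest at 8 h for miR-222a-3p and at 12 h for miR-122-3p.

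Members of the miR-10 family, which lie within the Hox clusters of vertebrates, did not move together. miR-10a-5p had 165, 202 and 127 rpm in the controls and 97.9, 12.8 and 55.4 rpm in severe hypoxia, and the 2 measured severe values differed greatly from each other. It was called lower on both scales (-2.12, SE 0.67, adjusted p = 0.0185, and -2.84 as a share, SE 0.67, adjusted p = 0.00424). Without severe library 2 the differences were -0.70 (adjusted p = 0.4) and -1.42 (adjusted p = 0.111), and without control library 2 the deposited one was -1.79 (adjusted p = 0.124). miR-10d-5p was called higher on both scales (1.502, adjusted p = 0.00133, and 1.04 as a share, adjusted p = 0.0203), from 11 implied reads against 37 (ratio 3.53, 1.76 to 7.66). Its share call was lost without control library 1 (0.71, adjusted p = 0.197) or severe library 3 (0.74, adjusted p = 0.195). miR-196a-5p, another Hox cluster miRNA, had 1.28, 1.56 and 1.84 rpm in the controls and 1 repeated value of 7.17 rpm in severe hypoxia, whose error comes from other groups, and was called on both scales (1.68, adjusted p = 0.00662, and 1.31, adjusted p = 0.0203). Without control library 1 the latter was 1.15 (adjusted p = 0.0908). Of the 7 tested members of miR-10 and miR-196, 3 were called higher and 1 lower as deposited (27.7% and 6.10% of all tested miRNAs), and 2 higher and 2 lower as a share (6.10% and 21.6%). miR-10c-5p, the most abundant, was higher as deposited (0.66, adjusted p = 0.00308) and not called as a share (-0.04, adjusted p = 0.881).

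The last falls at a mean of 10 rpm or more were in miR-2188-3p and miR-7a-5p. miR-7a-5p, a miRNA of endocrine pancreas and neurons, had 11.9, 20.2 and 28.5 rpm in the controls and 3.19, 7.90 and 5.54 rpm in severe hypoxia, without overlap. The difference was -1.68 as deposited (adjusted p = 0.00277) and -2.29 as a share (adjusted p = 0.000275). The deposited call was lost without control library 3 (-1.08, adjusted p = 0.0508) or severe library 1 (-1.13, adjusted p = 0.0539). miR-2188-3p had 46.8, 43.2 and 39.5 rpm against 20.7, 20.8 and 20.7 rpm, a difference of -1.02 (adjusted p = 0.018) as deposited and -1.64 (adjusted p = 0.00135) as a share. Its deposited call was lost without control library 1 (-0.90, adjusted p = 0.0804), severe library 1 (-1.02, adjusted p = 0.0622) or severe library 2 (-1.02, adjusted p = 0.0678). Its 5p strand, miR-2188-5p, was not called (-0.07, adjusted p = 0.912, and -0.76 as a share, adjusted p = 0.288).

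The remaining miRNAs called lower on both scales sat at a few rpm. miR-183-5p, of the cluster typical of sensory cells, had 5.96, 5.92 and 5.94 rpm in the controls and 2.39, 1.98 and 2.18 rpm in severe hypoxia. This is 20 implied reads against 7 (ratio 0.359, 0.128 to 0.883). miR-183-5p was called at -1.13 (adjusted p = 0.00694) as deposited and -1.84 (adjusted p = 0.000357) as a share, and its cluster partner miR-182-5p only as a share (-1.18, adjusted p = 0.0046). miR-132-5p, whose precursor is activity-induced in mammalian neurons, went from 24 implied reads to 6 (ratio 0.262, 0.0876 to 0.658) and was called at -1.78 (adjusted p = 0.0203) and -2.39 (adjusted p = 0.00424). Without control library 3 those were -1.29 (adjusted p = 0.15) and -1.91 (adjusted p = 0.0514), and without severe library 3 the deposited one was -1.30 (adjusted p = 0.147). miR-203b-5p, of the miR-203 family known from skin, was called at -1.13 (adjusted p = 0.00887) and -1.69 (adjusted p = 0.00141). It rests on 14 implied reads against 4 (ratio 0.2995, 0.0718 to 0.954). As deposited it was no longer called without control library 1 (-1.04, adjusted p = 0.0508) or severe library 2 (-0.94, adjusted p = 0.0803). A 3p strand of this family, miR-203a-3p, was called lower as a share (-1.89, adjusted p = 0.00628) and not as deposited (-1.27, adjusted p = 0.0589).

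miR-125a-3p and let-7d-3p, passenger strands, were called at -1.26 (adjusted p = 0.00121) and -1.0 (adjusted p = 0.0275) as deposited and at -1.84 (adjusted p = 4.96e-05) and -1.59 (adjusted p = 0.00248) as a share. miR-125a-3p rests on 15 implied reads against 4 (ratio 0.28, 0.0675 to 0.877). let-7d-3p rests on 1 repeated value in each group, 2.98 and 0.990 rpm, and takes its error from the other groups. It could therefore not be tested with only the libraries of these groups fitted. miR-20a-3p was called at -0.93 (adjusted p = 0.0435) and -1.59 (adjusted p = 0.00251). It rests on about 11 implied reads against 5 (ratio 0.466 as deposited, 0.127 to 1.455), and this interval for counting error includes 1 on the deposited scale. Its control values lay 0.119 and 0.198 rpm off whole reads, so these counts are approximate. The deposited call of miR-20a-3p was lost without control library 1 (-1.04, adjusted p = 0.067), control library 2 (-0.82, adjusted p = 0.172) or severe library 3 (-0.57, adjusted p = 0.271).

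The 2 strands of miR-122 went opposite ways as shares of the listed total. miR-122-5p had 11805, 12968 and 12387 rpm in the controls and 6865, 10298 and 8582 rpm in severe hypoxia. The groups did not overlap, and the difference was called as a share (-1.31, SE 0.28, adjusted p = 0.00251) but not as deposited (-0.56, SE 0.30, adjusted p = 0.154). The ratio of miR-122-5p to miR-122-3p, which is free of the scale, was 339 in the controls and 77.8 in severe hypoxia. Of the 67 precursors with both strands tested, 2 had their strands called in opposite directions as shares, miR-122 and miR-190a, and 3 had both called in the same direction, all lower (miR-9, miR-20a and miR-22a). miR-190a-3p was called higher on both scales (1.47, adjusted p = 0.00045, and 0.99 as a share, adjusted p = 0.00841) from 1.97 and 1.84 to 7.17 and 6.92 measured rpm. miR-190a-5p was lower as a share (-0.94, adjusted p = 0.00424).

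For miR-122-5p the 24 h control stood apart from the earlier controls, in a comparison that uses the same 24 h libraries as the main one. Its share there, 3.90% ± 0.60 (SD, n = 2), was 2.08 log2 above the mean of the earlier control groups (0.434% to 1.39%; adjusted p = 7.29e-07). In severe hypoxia 1.60% ± 0.46 was not called against the earlier severe groups (0.894% to 1.49%; 0.44, adjusted p = 0.14). Moderate hypoxia at 24 h had 8.21%, and severe minus moderate was -2.31 (adjusted p = 7.16e-06), in a comparison that called 40 miRNAs (19.5% of those tested), 17 higher (8.29%) and 23 lower (11.2%).

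Of the 11 tested liver-enriched miRNAs, 6 were called higher as deposited, miR-122-3p among them, against 27.7% of all tested miRNAs. As a share 1 was higher and 1 lower, against 6.10% and 21.6%, and these are the 2 strands of miR-122. miR-192-5p, abundant in liver and gut, had 27150.0, 17649 and 36651 rpm in the controls and 70986, 70782 and 70884 rpm in severe hypoxia. The groups did not overlap, but the controls spread widely and the difference was not called (1.48, SE 0.62, adjusted p = 0.0654, and 0.77 as a share, SE 0.64, adjusted p = 0.413). miR-148-5p, from 892, 883 and 901 rpm to 2001, 1925 and 1849 rpm, was called as deposited (1.11, adjusted p = 0.00026) and missed the threshold as a share (0.41, adjusted p = 0.0706). miR-194a-5p was called as deposited as well (0.95, adjusted p = 0.0141, and 0.26 as a share, adjusted p = 0.474).

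Known hypoxia-associated miRNAs were not called higher as a share of the listed total. Of 11 tested, 4 were called higher as deposited (against 27.7% of all tested) and 0 as a share in either direction, with a median log2 difference of 0.60 and -0.06. miR-210-3p had 94.2, 79.9 and 108 rpm in the controls and 137.96, 141.27 and 134.66 rpm in severe hypoxia. It was higher in every severe library as deposited and the difference was not called (0.56, SE 0.34, adjusted p = 0.198, and -0.12 as a share, SE 0.32, adjusted p = 0.836). Its 5p strand, miR-210-5p, with 52.8, 40.5 and 65.2 rpm against 109.9, 128.25 and 147 rpm, was called as deposited (1.29, adjusted p = 0.00791) and not as a share (0.60, adjusted p = 0.179). The call was lost without control library 2 (0.95, adjusted p = 0.107) or severe library 3 (1.08, adjusted p = 0.0623). The other 3 called as deposited were miR-199-5p (1.27, adjusted p = 0.000211), miR-21-5p (1.08, adjusted p = 0.00149) and miR-155-5p (1.499, adjusted p = 0.0123).

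The fish miRNA pair miR-462 and miR-731, reported as induced by hypoxia in zebrafish, gave no clear difference. miR-462-5p had 1607, 1165 and 2049 rpm in the controls and 1796, 2422 and 3047 rpm in severe hypoxia, and the groups overlapped (0.60, adjusted p = 0.18, and -0.10 as a share, adjusted p = 0.865). miR-731-5p was listed at 120.5 rpm in all 3 controls and at 0 in all 3 severe libraries. It was listed at 0 in every earlier control group and at group means of 262 to 476 ppm of the listed total in 3 earlier severe groups, so its listing changes between all and nothing by group and no fold was computed. miR-26a-3p had the same form at 24 h, 243 rpm repeated in the controls and 0 in severe hypoxia.

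Among the 24 tested miRNAs tied to vessel growth, 13 were called higher and 0 lower as deposited, and 3 higher and 2 lower as a share. Over all tested miRNAs these shares were 27.7% and 6.10% as deposited and 6.10% and 21.6% as a share of the total. The 3 are miR-126b-3p, miR-222a-3p and miR-221-5p, and the 2 are miR-27a-3p (-0.59, adjusted p = 0.0201) and miR-130a-3p (-1.90, adjusted p = 0.0156). The miR-126 strands are all among the 13 and are not separate measurements, and the severe value of miR-126b-3p is a repeated number. miR-130c-3p had 75.1, 61.2 and 89.1 rpm in the controls and 169, 205.5 and 187 rpm in severe hypoxia, and was called as deposited only (1.32, adjusted p = 0.000516, and 0.62 as a share, adjusted p = 0.0508). The list median was 0.85 as deposited and 0.17 as a share, beside 0.45 and -0.19 for all tested miRNAs.

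The miR-30 family, broadly expressed and needed for bile duct formation in zebrafish, had 5 of 7 tested members called higher as deposited, against 27.7% of all tested miRNAs, and 0 called as a share, against 27.7%. Among the 5 was miR-30b-5p (1.47, adjusted p = 0.00166, and 0.78 as a share, adjusted p = 0.0539). In the let-7 family, which holds back cell growth, 4 of 16 were higher and 1 lower as deposited, and 1 higher and 3 lower as a share, close to the shares over all tested miRNAs (27.7%, 6.10%, 6.10% and 21.6%). let-7a-5p had 21288, 19793 and 22783 rpm in the controls and 37018, 40433 and 38726 rpm in severe hypoxia, called as deposited (0.87, adjusted p = 0.00214) and not as a share (0.15, adjusted p = 0.601). miR-26a-5p, at 30154, 26895 and 33413 rpm against 58708, 56424 and 60991 rpm, was likewise called as deposited (0.97, adjusted p = 0.00121) and not as a share (0.28, adjusted p = 0.182). The strongest calls as deposited only included miR-152-5p (1.10, adjusted p = 0.000211), with 0.41 as a share (adjusted p = 0.0515).

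Members of the miR-17 to miR-92 cluster, which promotes cell division in mammals, had the following counts. As deposited 2 of 16 were higher and 1 lower, against 27.7% and 6.10% of all tested miRNAs. As a share 1 was higher and 5 lower, against 6.10% and 21.6%. miR-19b-3p had 2729, 2604 and 2480.0 rpm in the controls and 2308, 2204 and 2100.3 rpm in severe hypoxia, with no overlap, and was called as a share (-0.85, adjusted p = 0.00388) and not as deposited (-0.24, adjusted p = 0.362). miR-19a-3p (-0.92, adjusted p = 0.00768) and miR-20a-5p (-0.66, adjusted p = 0.00957) were called as shares too. miR-18a-3p was the member called higher on both scales (1.49, adjusted p = 0.000221, and 1.08 as a share, adjusted p = 0.0048), from 7 implied reads against 20 (ratio 3.91, 1.59 to 10.9). Without control library 1 its share difference was 0.83 (adjusted p = 0.0682).

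The abundant miR-22a-3p was not called as deposited, at 22651, 17746 and 27555 rpm in the controls and 21821, 20736 and 22905 rpm in severe hypoxia (-0.02, adjusted p = 0.947). As a share it held 5.91% to 7.67% in the controls and 3.87% to 4.37% in severe hypoxia and was called lower (-0.71, adjusted p = 0.0173). That call was lost under median-of-ratios scaling and without control library 3 (-0.52, adjusted p = 0.165) or severe library 2 (-0.62, adjusted p = 0.111). miR-301c-3p was among the strongest calls of this kind, from 1 repeated value of 91.97 rpm in the controls to 63.7, 58.8 and 61.2 rpm (-1.24 as a share, adjusted p = 0.00271, and -0.58 as deposited, adjusted p = 0.114).

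Marker miRNAs of other cell types differed between the groups in both directions. Leukocyte miR-142a-3p and miR-142b-3p carry identical values and count as 1 measurement, with 109, 80.9 and 137.8 rpm in the controls and 94.0, 85.6 and 77.3 rpm in severe hypoxia. They were called lower as a share (-0.998, adjusted p = 0.00141) and not as deposited (-0.31, adjusted p = 0.274). Of the 5 tested leukocyte strands, 2 were called higher as deposited, miR-142a-5p (0.91, adjusted p = 0.0498) and miR-155-5p, against 27.7% of all tested miRNAs. These miR-142 3p strands were the 2 called lower as a share, against 21.6%, but are 1 measurement under 2 names. As deposited their measured values overlapped between the groups. The summed leukocyte list held 1253 to 2266 rpm in the controls and 2807 to 3120 rpm in severe hypoxia, while its shares of 0.418% to 0.631% and 0.520% to 0.582% overlapped. The erythrocyte miRNA miR-144-5p was lower as a share (-1.34, adjusted p = 0.0231), and the summed erythrocyte list held 0.230% to 0.405% in the controls and 0.133% to 0.171% in severe hypoxia. Stromal markers held 6.58% to 10.2% against 5.13% to 6.19%, with 2 of 8 called higher as deposited, near the 27.7% of all tested miRNAs, and 0 called as a share. Endothelial strands held 1.79% to 1.93% against 3.82% to 4.07%, a gap that includes the repeated value of miR-126b-3p.

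Of 7 pancreas markers, 2 were higher and 1 lower as deposited, and 2 were lower as a share, near the shares over all tested miRNAs (27.7%, 6.10% and 21.6%). The exocrine miR-217-5p and miR-216b-5p were called higher as deposited (1.75, adjusted p = 0.0109, and 1.39, adjusted p = 0.00809) and not as a share (1.14, adjusted p = 0.118, and 0.65, adjusted p = 0.222), while miR-7a-5p fell. miR-375-5p, 1 strand of the islet miRNA miR-375, had 1 repeated value in each group, 45.9 rpm in the controls and 4.94 rpm in severe hypoxia. It takes its error from other groups. It was called as a share (-3.67, adjusted p = 0.0287) and not as deposited (-2.98, adjusted p = 0.0629). The other strand, miR-375-3p, had the opposite sign and was not called (2.05 as deposited, adjusted p = 0.08045, and 1.46 as a share, adjusted p = 0.27). Muscle markers were below 25 rpm in sum in each library. Epithelial markers held 0.330% to 0.511% of the listed total in the controls and 0.345% to 0.358% in severe hypoxia. The part of cell makeup in any difference above was not tested.

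**Figure D4:**
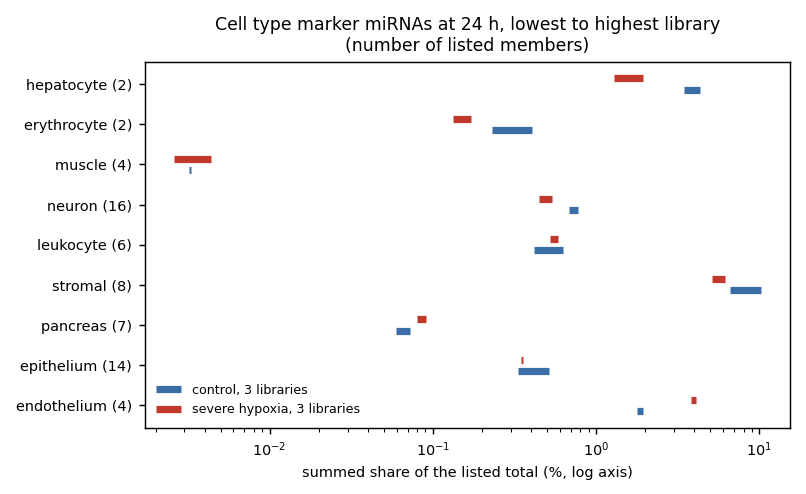
Summed share of the listed total (x axis, percent, log scale) for 9 lists of cell type marker miRNAs, with the number of listed members in brackets. Bars run from the lowest to the highest of the 3 libraries, blue for control and red for severe hypoxia at 24 h. Hepatocyte, erythrocyte, neuron and stromal ranges lie lower in severe hypoxia, pancreas and endothelium ranges lie higher, and the muscle, leukocyte and epithelium ranges overlap.

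The 24 h difference was itself compared with the mean of the 4 earlier differences between severe hypoxia and control. As a share, 56 of 201 miRNAs (27.9%) differed, 14 higher (6.97%) and 42 lower (20.9%), and as deposited 76 (37.8%), 66 higher (32.8%) and 10 lower (4.98%). miR-10a-5p had -3.77 (adjusted p = 0.00148), miR-153a-3p -3.35 (adjusted p = 1.13e-06), miR-138-5p -3.13 (adjusted p = 0.000145) and miR-122-5p -1.64 (adjusted p = 0.00123) as shares. On the upper side, miR-222a-3p had 1.80 (adjusted p = 0.0021) and miR-460-3p 1.32 (adjusted p = 0.0171). Of the 13 rises called on both scales, 12 could be tested and 5 were not called: miR-122-3p had -0.04 (adjusted p = 0.905), let-7a-3p 0.23 (adjusted p = 0.628), miR-181a-5p 0.39 (adjusted p = 0.0789), miR-10d-5p 0.38 (adjusted p = 0.504) and miR-196a-5p 0.08 (adjusted p = 0.897). Of the 13 falls, miR-2188-3p was not called (-0.70, adjusted p = 0.173). These rises and falls were chosen by the 24 h difference, which is also a part of this comparison. The call for miR-460-3p was lost without control library 3 (0.92, adjusted p = 0.157), severe library 1 (1.10, adjusted p = 0.101) or the 8 h groups (1.07, adjusted p = 0.0527).

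Several of the 24 h rises in severe hypoxia came with low 24 h controls. Of the 12 rises tested for this as a share, 7 were called lower in the controls, against 17.3% of all 208 miRNAs. In the severe group 3 of 13 were called higher and 3 lower, against 11.6% and 18.4%. The rises were chosen with these 24 h libraries, so the values are the same ones seen from another side. As a share, the control group at 24 h was below its earlier mean for miR-222a-3p (-0.94, adjusted p = 0.00749), miR-125b-5p (-1.09, adjusted p = 8.56e-06), let-7a-3p (-1.01, adjusted p = 0.00096) and miR-181a-5p (-0.41, adjusted p = 0.00947). The severe group at 24 h was above its earlier mean for miR-222a-3p (0.86, adjusted p = 0.0178) and below it for miR-125b-5p (-0.48, adjusted p = 0.0175) and let-7a-3p (-0.78, adjusted p = 0.0123). miR-181a-5p was not called there (-0.02, adjusted p = 0.964). miR-460-3p was the reverse: its 24 h controls were not called against earlier ones (-0.11, adjusted p = 0.776), and its severe group was 1.22 above (adjusted p = 0.00224).

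Against moderate hypoxia at the same time, the rises split as well. Of the 13 called on both scales, 6 were called above moderate hypoxia as a share. Called below it was 1, miR-196a-5p (-2.70, adjusted p = 0.000476). As a share, severe minus moderate was 2.32 for miR-460-3p (adjusted p = 5.78e-05), 2.95 for miR-365-3p (adjusted p = 1.57e-07), 0.83 for miR-125b-5p (adjusted p = 0.00464), 0.82 for let-7a-3p (adjusted p = 0.0448) and 0.75 for miR-122-3p (adjusted p = 0.0451). It was not called for miR-222a-3p (0.70, SE 0.34, adjusted p = 0.186), miR-221-5p (0.02, SE 0.23, adjusted p = 0.966) or miR-181a-5p (0.03, SE 0.14, adjusted p = 0.912). Of the falls, severe hypoxia was below moderate for miR-10a-5p (-3.33, adjusted p = 0.00171), miR-7a-5p (-1.99, adjusted p = 0.00486) and miR-183-5p (-1.26, adjusted p = 0.00734). These 3 were the only calls among the 12 falls that could be tested, and miR-153a-3p could not be. Over all miRNAs tested, 11.2% were called lower. Among the falls without a call were miR-9-5p (-0.81, adjusted p = 0.244), miR-138-5p (-1.23, adjusted p = 0.0532) and miR-2188-3p (-0.23, adjusted p = 0.664). The 3p strand miR-9-3p, called lower than control only as a share, was above moderate hypoxia (1.33, adjusted p = 0.0178).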

How the data were processed

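Small RNA of 15 groups of liver (3 oxygen levels, 5 times, 3 libraries each, 45 in all) was read on an Illumina sequencer, per the labels' protocols. The deposited values are rpm, made by the authors, for 266 named miRNAs. Aligner, genome build and denominator of the rpm: not given in the sources used here. No positions are printed. The depths given as implied reads come from the spacing of low values and are not totals reported by the sequencer. Ratios of implied reads are taken over the implied depths, so they and their intervals belong to the deposited scale and not to shares. Their intervals cover counting error only.

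A value equal to the mean of the other 2 in its group (within 0.0101 rpm or 0.1%) was set to missing, of 3 identical values 1 was kept, and a group at 0 was set to missing. Of 266 miRNAs, 38 with a mean under 1 rpm and 15 with a 24 h group at 0 were not tested. The remaining 213 were fitted on log2(rpm + 1) by limma 3.58.1 in R 4.3.3 with all 15 groups in 1 fit and a trend of the variance on abundance (median of 15 residual degrees of freedom). The share scale divides each value by its library's listed total and multiplies by the mean listed total. That total sums all deposited values, averaged and repeated ones included. All tests were two-sided. The fit was tested on simulated data.

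Named with values are: called on both scales without overlap at a mean of 10 rpm or more, the strongest calls on 1 scale, the 5 most abundant, miR-122, miR-210, miR-462 and miR-731, up to 4 called members of each list, miRNAs at 0 in 1 group and at 100 rpm or more in the other, and their opposite strands. Other names were chosen after their values were seen. The members and lists were chosen with earlier results of these data known. Alternatives covered the constant added, the filter, the scaling, the averaged values, the error, the variance trend, the libraries fitted, each library left out and the replicate number as a block.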

Additional observations from a re-analysis of the deposited data

Results flagged for a closer look

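Of the 26 miRNAs called on both scales at 24 h, 25 could be tested for whether the 24 h difference between severe hypoxia and control differed from the mean of the 4 earlier differences, and 7 rises and 12 falls did (limma, share of the listed total, adjusted p under 0.05). Over all 201 miRNAs tested so, 6.97% were called higher and 20.9% lower. The 26 were chosen by the 24 h difference, which is also a part of this comparison. Calls in the same direction are therefore favoured by the choice and are not separate evidence. On the log2 scale the gap was 5.26 for miR-126b-3p, whose severe value at 24 h is a repeated number, 1.80 for miR-222a-3p, 1.32 for miR-460-3p, 1.26 for miR-190a-3p, 1.21 for miR-18a-3p, 0.96 for miR-365-3p and 0.62 for miR-125b-5p. Among the falls it was -3.77 for miR-10a-5p, -3.35 for miR-153a-3p, -3.13 for miR-138-5p, -2.83 for miR-7a-5p, -2.37 for miR-9-5p and -2.27 for miR-183-5p. It was -2.16 for miR-132-5p, -1.94 for miR-125a-3p, -1.83 for miR-203b-5p, -1.76 for let-7d-3p, -1.31 for miR-219-5p and -1.15 for miR-20a-3p. Of the other miRNAs named by rule, the gap was called for miR-9-3p (-1.996), miR-122-5p (-1.64), miR-301c-3p (-0.96), miR-142a-3p and miR-142b-3p (both -0.95), miR-22a-3p (-0.75), miR-148-5p (0.67) and miR-152-5p (0.64).

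Some of these calls were lost when a library or an earlier time was left out, which was not run for miR-190a-3p. For miR-365-3p this was so without the 4 h groups (0.51, adjusted p = 0.285), control library 3 (0.59, adjusted p = 0.253), severe library 2 (0.94, adjusted p = 0.0876) or severe library 3 (0.98, adjusted p = 0.0753). For miR-125b-5p it was so without the 4 h groups (0.45, adjusted p = 0.134), control library 3 (0.45, adjusted p = 0.213), severe library 1 (0.57, adjusted p = 0.127) or severe library 3 (0.66, adjusted p = 0.0748), and for miR-460-3p without the 8 h groups (1.07, adjusted p = 0.0527), control library 3 (0.92, adjusted p = 0.157) or severe library 1 (1.10, adjusted p = 0.101). miR-20a-3p lost the call without the 0 h groups (-0.66, adjusted p = 0.28), the 8 h groups (-0.98, adjusted p = 0.0795), control library 2 (-0.95, adjusted p = 0.144) or severe library 3 (-0.77, adjusted p = 0.211), and miR-219-5p without control library 1 (-0.92, adjusted p = 0.16) or severe library 2 (-1.17, adjusted p = 0.0915). miR-132-5p lost it without control library 3 (-1.68, adjusted p = 0.123) or severe library 3 (-1.66, adjusted p = 0.122), and miR-22a-3p without control library 3 (-0.56, adjusted p = 0.18) or severe library 2 (-0.66, adjusted p = 0.121). miR-301c-3p lost it without the 0 h groups (-0.77, adjusted p = 0.0648) or severe library 2 (-0.90, adjusted p = 0.0644), and miR-148-5p without control library 3 (0.55, adjusted p = 0.0786).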

How the results depend on the processing

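The averaged values bear most on the results, given here as the percent of tested miRNAs called. With all 3 deposited values kept, 69.0% were called as deposited, 60.1% as a share, 51.2% for 24 h against the earlier times, 72.1% for the 24 h controls and 63.8% for the 24 h severe group against their own earlier groups. With standard errors doubled these were 0.939%, 0.469%, 0.498%, 8.17% and 0.483%. Leaving out 1 library at 24 h gave 22.1% (without control library 2) to 34.7% as deposited, 20.9% to 26.5% as a share and 21.9% to 24.6% for 24 h against the earlier times. The gap of the listed totals was 183600 to 213200 rpm with 1 library left out, 200600 rpm over miRNAs above 0 in all 6 libraries and 84450 rpm without the 5 most abundant. The other alternatives kept each count of calls within 1.5 times, and scaling moved the split of directions as given with the main counts. Single calls were lost all the same. With only the 6 libraries at 24 h fitted, the share call ended for miR-365-3p, miR-122-3p, let-7a-3p, miR-125b-5p, miR-18a-3p, miR-10d-5p and miR-196a-5p. The deposited call ended there for miR-2188-3p and miR-20a-3p, and let-7d-3p had no error of its own and could not be tested. Same-numbered control and severe libraries had correlations of 0.12, -0.12 and 0.10 in their deviations from the group means. These used all 3 deposited values, and an averaged value lies near its group mean, so they cannot decide whether the numbers pair the samples. With the replicate block 33.2%, 28.4%, 25.9%, 42.8% and 29.6% were called, in the order above. Among named miRNAs, 75 alternative values as a share, 61 as deposited and 56 for 24 h against the earlier times lost the call, and none of those run changed the sign of a called value. Count models were not run, since whole reads could not be recovered for nearly all values. Depth limits the miRNAs of a few rpm, since 1 read is worth 0.426 to 0.987 rpm.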

Other observations

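Some miRNAs were listed in one 24 h group and at 0 in the other. There were 18 at 0 in all severe libraries only, 8 at 0 in all control libraries only and 18 at 0 in both. Of the 18, 15 had a control mean under 13 rpm and 13 carried 1 identical value in all 3 controls. The 3 at higher level were miR-26a-3p, miR-731-5p and miR-458-5p, which was chosen after its values were seen and had 79.2, 57.5 and 35.8 rpm in the controls. Among the 8, the highest severe mean was 5.57 rpm, that of the leukocyte miRNA miR-150-5p. Of the 213 tested miRNAs, 112 were of the 5p arm and the rest of the 3p arm. As a share, 8 strands of the 3p arm were called higher and 22 lower, with a median of -0.33. Of the 5p arm, 5 were called higher and 24 lower, with a median of -0.04. In both arms these counts were near the shares over all tested miRNAs (6.10% higher and 21.6% lower). A difference between the arms was not tested.

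The 2 strands of a hairpin agreed in sign for 34 of the 67 precursors with both tested, as a share. For 4 precursors the strands differed by more than 2 log2: miR-126b, miR-375, miR-125a and miR-122. The ratio of miR-125a-5p to miR-125a-3p was 89.2 in the controls and 680.2 in severe hypoxia. That ratio is taken without the rpm added in the fit, where the gap between these strands was 2.22 log2. Its lower term, miR-125a-3p, rests on 15 implied reads in the controls and 4 in severe hypoxia.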
